A study of Mus musculus with 8 samples.

Results

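The miRNAs described here are 6 arms of 2 pairs known from smooth muscle, chosen by name. They are mmu-miR-143-3p, mmu-miR-143-5p, mmu-miR-145a-5p and mmu-miR-145a-3p of the contractile pair, and mmu-miR-221-3p and mmu-miR-222-3p of the proliferative pair (the species prefix is left out below), out of 1023 mouse miRNA names on the array. All probes carrying these names were used, 14 in number. RNA of total kidney from CD-1 (outbred) mice was read on one-colour Agilent miRNA arrays. Of the 8 arrays 4 hold kidneys treated with tacrolimus (a daily 1 mg/kg over 28 days) and 4 hold control kidneys given physiological serum. The labels state no sex, age or number of mice. They also do not say whether replicates are different animals, so the p-values reflect the variation among these samples alone, and it may be technical.

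Smooth muscle cells of vessel walls switch between a contractile state and a dividing, migrating one. miR-143 and miR-145 are made from 1 transcript under the control of serum response factor and myocardin, and by repressing factors such as KLF4 and KLF5 they hold the cell in the contractile state. miR-221 and miR-222 are induced by platelet-derived growth factor. They repress the cell cycle inhibitor p27, which favours division, and the receptor c-Kit. In the kidney the first pair is known from arteries, arterioles and other contractile stromal cells, while the second is also made by endothelial cells. Tacrolimus, a calcineurin inhibitor given against transplant rejection, constricts renal vessels, and the comparison addresses whether the kidney's miRNAs shift under it.

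Mir221 and Mir222 are neighbours on chromosome X, with 0 genes annotated between them in RefSeq. The mature arms of the X-linked pair are shown because they share a seed (bases 2 to 8, in capitals), the stretch that pairs with target mRNAs, and their probes are shown after them. The sequences are those of RefSeq for GRCm38.p6, where miR-221-3p lies at chrX:19146307-19146329 and miR-222-3p at chrX:19146901-19146923, both on the minus strand.
miR-221-3p: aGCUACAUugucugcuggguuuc
miR-222-3p: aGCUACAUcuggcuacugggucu
The first 8 bases of both arms are identical, and 11 of their 23 positions match in all. This seed occurs in 3 of the 1679 mature mouse miRNAs held by the same RefSeq source, the other being miR-1928. Each arm was measured with 2 probes of the array, given here because they show which part of the miRNA was read.
miR-221-3p, longer probe: gaaacccagcagacaatgta
miR-221-3p, shorter probe: gaaacccagcagacaatgt
miR-222-3p, longer probe: acccagtagccaga
miR-222-3p, shorter probe: acccagtagccag
The probes of miR-221-3p pair with its bases 4 to 23 and 5 to 23, and so reach into the seed by 5 and 4 bases. Those of miR-222-3p pair with bases 8 to 21 and 9 to 21, reaching the seed by 1 and 0 bases. Placed without gaps on the other miRNA, the longer miR-221-3p probe pairs with at most 8 of its 20 bases and the longer miR-222-3p probe with at most 10 of its 14.

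The arrays detected 147 (tacrolimus 4) to 215 (tacrolimus 2) miRNAs and correlated at 0.987 to 0.997 over the 194 miRNAs that were tested. The spread of negative control spots was widest on tacrolimus 4 (SD 57.97 intensity units) among tacrolimus arrays and on control 1 (SD 81.7) among control arrays. Tacrolimus arrays occupied slide row 2 without exception and control arrays slide row 1, so row and treatment cannot be told apart. In each of the 4 slide columns a tacrolimus and a control array sat together. Precision is limited by there being only 4 arrays a group.

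Both pairs stood at nearly the same level in tacrolimus and control kidneys. Of the 6 arms 4 passed the filter on dim probes (detection on at least 4 of 8 arrays), and 0 of these 4 rose or fell in limma at an adjusted p under 0.05, with 0 at an unadjusted p under 0.05. Over all 194 tested miRNAs 3.09% were higher and 0% lower at that adjusted p, and 15.5% reached the unadjusted p. The groups overlapped for each of the 4 arms. Among all tested miRNAs they did not overlap for 10.3%, so 0 of 4 does not set these arms apart. The median difference of the 4 arms was -0.01 on the log2 scale, beside 0.04 for all tested miRNAs. Their median size regardless of sign was 0.031, beside 0.096 for all tested miRNAs. In whole kidney, fewer cells of a type and less of a miRNA per cell cannot be told apart.

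**Figure D1:**
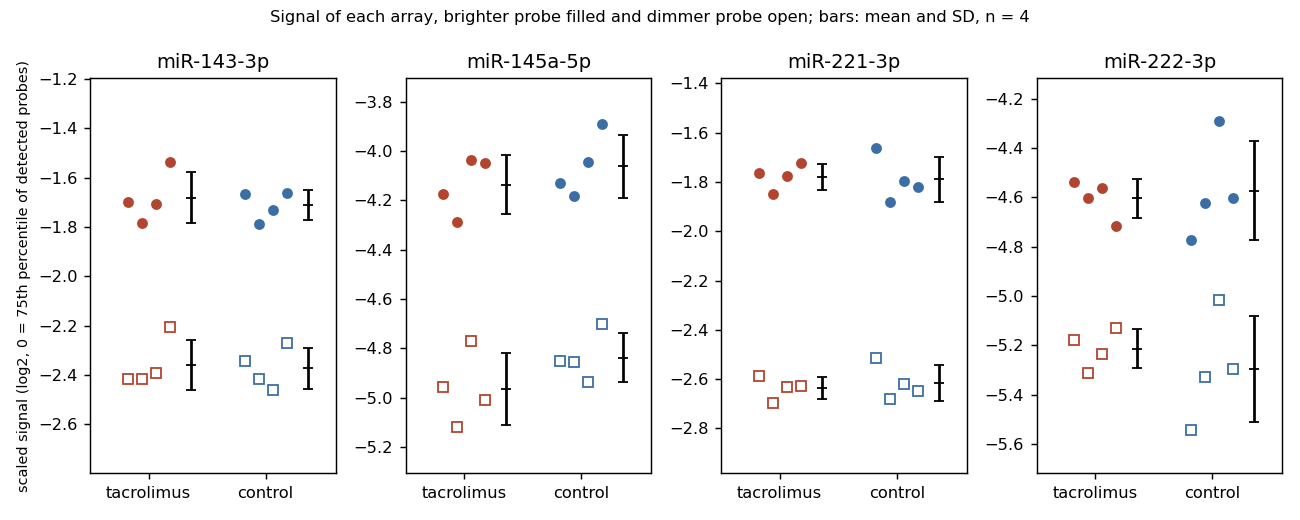
Scaled signal (log2, 0 being the array's 75th percentile) of each array for the 4 detected arms, tacrolimus left and control right, with filled circles for the brighter probe, open squares for the dimmer probe, replicates 1 to 4 from left to right, and bars for mean and SD (n = 4). The groups overlap in all 4 panels. On this scaled signal, though not before scaling, control 3 lies highest and control 1 lowest among the control arrays for both probes of miR-222-3p.

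In RefSeq, Mir143 and Mir145a are neighbours with 0 genes annotated between them, and the long noncoding transcript Carmn spans both. miR-143-3p is the main product of the first hairpin. Its scaled signal, in log2 units above or below the array's 75th percentile (taken over the 252 probes that all 8 arrays detected), was -1.70, -1.78, -1.71 and -1.54 in tacrolimus kidneys 1 to 4. In control kidneys 1 to 4 it was -1.66, -1.79, -1.73 and -1.66. Tacrolimus 4 was the highest of the 8 arrays and the other 3 tacrolimus values lay within the control range. The means were -1.68 ± 0.10 in tacrolimus and -1.71 ± 0.06 in control kidneys (SD, n = 4 each), a difference of 0.03 (SE 0.073, 95% interval -0.13 to 0.19, adjusted p = 0.858, limma). As a ratio this was 1.02-fold, with an interval of 0.911 to 1.14. The direction rested on tacrolimus 4. When an array was left out of a treatment difference, here and below, the scaling was set anew on the probes that all remaining arrays detected. Without tacrolimus 4 the difference was thus -0.13, a value that holds this new scaling as well as the missing array. The median of all tested miRNAs was then -0.064. The shorter of its 2 probes differed by 0.01.

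miR-145a-5p, the main product of the neighbouring hairpin and the arm that represses KLF4 and KLF5, gave -4.17, -4.29, -4.03 and -4.05 in tacrolimus kidneys 1 to 4. Control kidneys 1 to 4 gave -4.13, -4.18, -4.04 and -3.89. Tacrolimus 2 was the lowest and control 4 the highest of the 8 arrays, and the groups overlapped in between. With means of -4.14 ± 0.12 in tacrolimus and -4.06 ± 0.13 in control kidneys (n = 4 each), the difference was -0.08 (SE 0.089, interval -0.28 to 0.12, adjusted p = 0.719, limma). This was the largest difference among the 4 arms, and 121 of the 194 tested miRNAs had a larger one. The ratio was 0.949, with an interval of 0.826 to 1.09. Its second probe, detected on 3 arrays of each group, differed by -0.13. The direction was the same without any 1 array, at -0.22 (without tacrolimus 4) to -0.02 (without control 4).

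miR-221-3p, which represses p27, had the smallest standard error of the 4 arms. It stood at -1.77, -1.85, -1.78 and -1.72 in tacrolimus kidneys 1 to 4, against -1.66, -1.88, -1.80 and -1.82 in control kidneys 1 to 4. All tacrolimus values lay between the highest control (1) and the lowest control (2). The means, -1.78 ± 0.05 in tacrolimus and -1.79 ± 0.09 in control kidneys (n = 4 each), differed by 0.01 (SE 0.069, interval -0.14 to 0.17, adjusted p = 0.942, limma), which is 1.01-fold with an interval of 0.905 to 1.12. Of the 194 tested miRNAs 183 had a larger difference, and 26 had a smaller standard error. The sign of so small a value has no weight, being -0.12 without tacrolimus 4 and -0.02 without control 2. The shorter probe differed by -0.02.

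miR-222-3p shares the seed of miR-221-3p and is described with the same targets. It was dim, with 69.9 to 96.2 intensity units in tacrolimus and 71.5 to 92.5 in control kidneys, and was detected on 3 tacrolimus and 4 control arrays. On tacrolimus 4, where it was not called detected, 20% of its spots were well above background. Its scaled signal was -4.54, -4.60, -4.56 and -4.71 in tacrolimus kidneys 1 to 4, and -4.77, -4.62, -4.29 and -4.60 in control kidneys 1 to 4. The tacrolimus values lay inside the wider control range. The means of -4.60 ± 0.08 in tacrolimus and -4.57 ± 0.20 in control kidneys (n = 4 each) differed by -0.03 (SE 0.103, interval -0.26 to 0.20, adjusted p = 0.896, limma), or 0.978-fold with an interval of 0.833 to 1.15. Without control 3 the difference was 0.06, and the second probe, detected on 3 tacrolimus and 2 control arrays, gave 0.08. On the scaled signal both probes were highest in control 3 and lowest in control 1 among the control arrays. Before scaling, control 1 was the highest control for both probes (92.5 and 54.2 intensity units). The 75th percentile used for scaling was the largest of the control arrays on control 1 (2527) and the smallest on control 3 (1431). The second probe was not detected on either of these arrays.

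The remaining arms, which are the less abundant products of their hairpins, were not detected. Both probes of miR-143-5p and all 4 probes of miR-145a-3p fell short of detection on every one of the 8 arrays. For miR-143-5p, 0 of 147 kept spots in tacrolimus and 0 of 138 in control kidneys were well above background. For miR-145a-3p this was 1 of 151 spots in tacrolimus and 1 of 151 in control kidneys. Their probe means reached at most 29.9 intensity units in tacrolimus (miR-143-5p) and 20.8 in control kidneys (miR-145a-3p). No fold was computed for them. The other arms of the proliferative pair, miR-221-5p and miR-222-5p, were likewise detected on 0 arrays of either group.

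Repeated spots show how far readings varied within an array, once spots marked as outliers were left out. The 20 spots of a probe, of which 15 to 20 were kept, varied within an array by a median CV of 4.61% for miR-143-3p, 8.05% for miR-145a-5p, 4.05% for miR-221-3p and 9.10% for miR-222-3p. The standard error of an array's mean was accordingly 1.09%, 1.90%, 1.03% and 2.18% in the same order. It holds no error shared by all spots of an array. The CV of miR-222-3p reached 19.6% on control 3. For these 4 arms the software's own error of the total gene signal had group medians of 7.33% (miR-143-3p, control) to 11.6% (miR-222-3p, control). miR-222-3p had the largest standard error of the treatment difference (0.103, with 120 of 194 tested miRNAs below it) and miR-221-3p the smallest (0.069).

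The contractile pair was then set against the proliferative pair within each array, as the mean of miR-143-3p and miR-145a-5p minus the mean of miR-221-3p and miR-222-3p. The scaling of an array drops out of this value, whose level has no meaning in itself because it joins different probes. It was 0.22, 0.19, 0.30 and 0.43 in tacrolimus kidneys 1 to 4, and 0.32, 0.27, 0.16 and 0.44 in control kidneys 1 to 4. The means were 0.28 ± 0.11 in tacrolimus and 0.30 ± 0.12 in control kidneys (n = 4 each), a difference of -0.01 that is smaller than either SD. No test was made, as the score joins chosen miRNAs. The 4 tacrolimus arrays lay inside the control range.

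The components of this contrast showed the same. miR-143-3p minus miR-221-3p was 0.10 ± 0.06 in tacrolimus and 0.08 ± 0.07 in control kidneys. miR-145a-5p minus miR-222-3p was 0.47 ± 0.16 in tacrolimus and 0.51 ± 0.21 in control kidneys. Within the contractile pair, miR-143-3p minus miR-145a-5p was 2.46 ± 0.09 in tacrolimus and 2.35 ± 0.10 in control kidneys, and this difference of 0.11 was just above either SD, with overlapping groups. Within the proliferative pair, miR-221-3p minus miR-222-3p was 2.82 ± 0.11 in tacrolimus and 2.78 ± 0.25 in control kidneys (n = 4 each throughout).

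**Figure D2:**
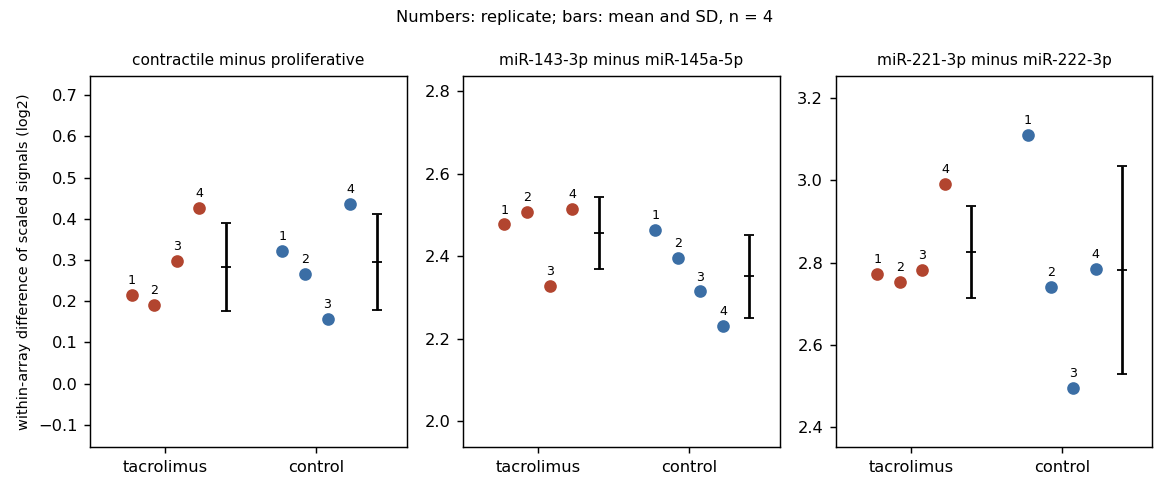
Within-array differences of scaled signals (log2) for the contractile minus the proliferative pair (left), within the contractile pair (middle) and within the proliferative pair (right), with 1 point an array numbered by replicate, tacrolimus left of control, and bars for mean and SD (n = 4). The groups overlap in each panel, and the left panel's means are 0.28 in tacrolimus and 0.30 in control kidneys.

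Arrays that shared a slide column gave no common direction either. Tacrolimus minus control in columns 1 to 4 was -0.03, 0.01, 0.02 and 0.13 for miR-143-3p. For miR-145a-5p it was -0.05, -0.10, 0.01 and -0.16, so that 1 of 4 columns lay above 0. It was -0.10, 0.03, 0.02 and 0.10 for miR-221-3p, with 3 of 4 columns above 0. miR-222-3p split evenly, with 0.23, 0.02, -0.27 and -0.11.

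Other miRNAs described in smooth muscle biology were taken from 2 lists. Of 14 miRNAs described as contractile or as restraining growth, 8 were tested, with a median difference of 0.03. In limma 0 of the 8 were higher and 0 lower at an adjusted p under 0.05, beside 3.09% of all tested miRNAs. At an unadjusted p under 0.05, 1 of the 8 was higher, beside 15.5% of all tested miRNAs in either direction. Besides the members the list held miR-195a-5p, a cell cycle repressor, at 0.26 (SE 0.092, adjusted p = 0.244, limma) and miR-322-5p, of the same seed family, at 0.15 (adjusted p = 0.475, limma). miR-365-3p stood at -0.10 (adjusted p = 0.636, limma). miR-133a-3p and miR-133b-3p were detected on 0 arrays, and miR-1a-3p, which is shared with heart and skeletal muscle, on 2 tacrolimus and 0 control arrays. This detection count was not tested. Tacrolimus arrays 1 to 3 detected 201 to 215 miRNAs in all and tacrolimus 4 detected 147, beside 157 to 197 on control arrays. No probe of the name miR-145b was found.

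Of 11 miRNAs described as proliferative, 7 were tested, with a median difference of 0.07. Again 0 were higher and 0 lower at an adjusted p under 0.05 in limma. At an unadjusted p under 0.05, 2 of the 7 were higher, beside 15.5% of all tested miRNAs in either direction. miR-221-3p and miR-222-3p had the smallest values of the 7. The other 5 lay between 0.04 and 0.45, with a median of 0.23. Among them miR-21a-5p, which promotes smooth muscle growth and is abundant in injured tissue, stood at 3.24 ± 0.20 in tacrolimus and 2.79 ± 0.19 in control kidneys (n = 4 each). Its difference of 0.45 (SE 0.126) missed the threshold (adjusted p = 0.104, limma). Its groups did not overlap, which was so for 10.3% of all tested miRNAs. miR-146a-5p stood at 0.32 (SE 0.126, adjusted p = 0.273, limma). Whether miR-221-3p and miR-222-3p differ from these 5 was not tested.

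**Figure D3:**
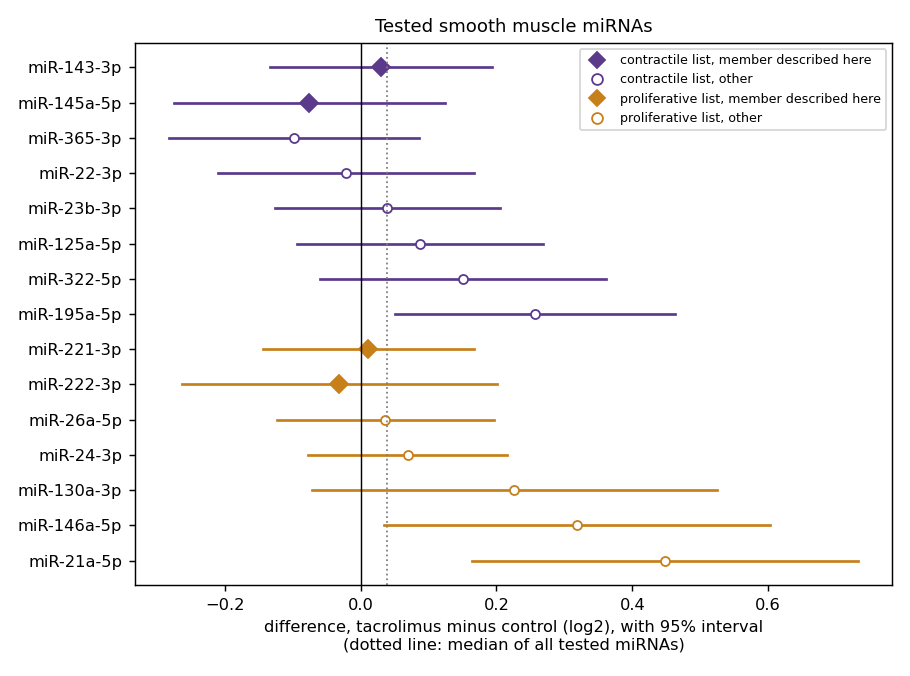
Difference between tacrolimus and control kidneys (log2, horizontal axis) with its 95% interval from limma for the 8 tested miRNAs of the contractile list and the 7 of the proliferative list, with filled diamonds for the miRNAs described here and open circles for the others. The diamonds lie between -0.08 and 0.03, with intervals that span 0, and the dotted line marks the median of all tested miRNAs at 0.04.

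Markers of other cells frame these values. The summed signal of the endothelial miR-126a arms was 1.83 to 1.92 in tacrolimus and 1.78 to 2.03 in control kidneys. That of 4 tubule miRNAs was 2.85 to 3.01 in tacrolimus and 2.82 to 2.89 in control kidneys. That of 4 leukocyte miRNAs was -0.74 to -0.20 in tacrolimus and -1.40 to -0.70 in control kidneys, and that of 3 erythrocyte miRNAs 0.91 to 1.32 in tacrolimus and 1.07 to 2.54 in control kidneys. The summed signal of the stromal miR-199a-3p, miR-199a-5p and miR-214-3p was -0.32 to 0.19 in tacrolimus and -0.67 to -0.46 in control kidneys. These 3 of 3 were higher, by 0.47 to 0.69 (adjusted p = 0.0476 for each, limma). That p is close to the threshold, and in 18 of 23 alternatives, the replicate block among them, 0 miRNAs of any kind were called higher. The 3 are themselves among the 6 miRNAs, 3.09% of all tested, that passed. The lists were chosen with earlier results of these data known, so this count is no separate support. miR-199a-3p and miR-199a-5p are also arms of the same miR-199a. Of the leukocyte list 0 passed the adjusted threshold and 3 of 4 were higher at an unadjusted p under 0.05 (median 0.58). Of the erythrocyte list 0 passed and 3 of 3 were lower at that unadjusted p (median -0.67). In the tubule list 0 passed and 1 of 4 was higher at that unadjusted p (median 0.14). The 2 endothelial arms held 0 at either threshold (median 0.015). Of all 194 tested miRNAs, 21 were higher and 9 lower at that unadjusted p. Of 6 striated muscle markers and 1 liver marker 0 reached the filter for testing. The part of other cell types in the members' values was not tested, and no miRNA here marks smooth muscle alone, so that the name of the group rests on what the miRNAs are known for and not on a check in these data.

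The last description is of how the members varied together over the 8 arrays. The main arms of the contractile locus had a Pearson r of 0.53 (Spearman rho 0.55), the 19th highest among 193 miRNAs set against miR-143-3p. The proliferative arms had an r of -0.39 (rho -0.26). The third highest for miR-143-3p was miR-221-3p, of the opposite pair (r 0.69, rho 0.71). These correlations are descriptions over 8 arrays that share the scaling, with no test, and the largest were picked from 193. Most like miR-143-3p were otherwise miR-487b-3p (r 0.73, rho 0.48) and miR-23a-3p (r 0.72, rho 0.62). Without tacrolimus 4 and control 2, the arrays farthest from its median, their r was 0.40 and 0.19, and that of miR-221-3p was 0.61. miR-487b-3p was detected on only 3 tacrolimus and 1 control arrays, and its r was 0.22 with normexp background and -0.22 with the total gene signal, so this likeness turned with the processing.

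Most like miR-145a-5p were miR-365-3p (r 0.83, rho 0.81), miR-30e-5p (r 0.79, rho 0.43) and miR-22-5p (r 0.77, rho 0.79), at 0.46, 0.15 and 0.53 without tacrolimus 2 and control 4. Most like miR-221-3p were miR-1904 (r 0.94, rho 0.93), miR-1982-5p (r 0.86, rho 0.79) and miR-361-5p (r 0.82, rho 0.76), at 0.82, 0.61 and 0.53 without control 1 and control 2. Most like miR-222-3p were miR-484 (r 0.86, rho 0.62), miR-30c-2-3p (r 0.86, rho 0.76) and miR-30a-5p (r 0.83, rho 0.38), at 0.60, 0.69 and 0.11 without control 3 and control 1. For miR-23a-3p, miR-30e-5p and miR-30a-5p the likeness was thus under 0.2 without the arrays left out. miR-1982-5p was detected on only 3 tacrolimus and 1 control arrays, and miR-484 on only 3 tacrolimus and 2 control arrays. Both had signal at the floor used in processing (-5.96) on at least 1 array.

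**Figure D4:**
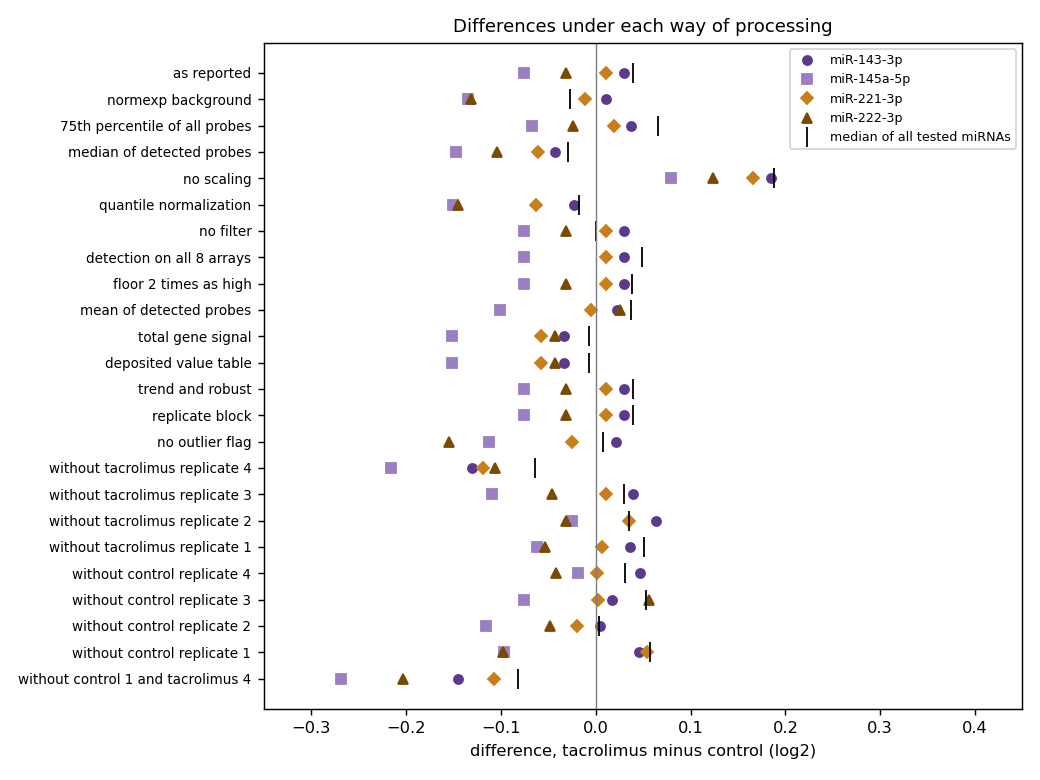
Difference between tacrolimus and control kidneys (log2, horizontal axis) of the 4 tested arms under each way of processing (rows), with a vertical tick for the median of all miRNAs tested in that row. The tick lies highest without scaling (0.19) and lowest without control 1 and tacrolimus 4 (-0.082), and miR-222-3p has no point where detection on all 8 arrays was required.

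Each of the 4 differences changed sign in at least 1 other way of processing. This was so in 6 of 23 for miR-143-3p, 10 of 23 for miR-221-3p and 3 of 22 for miR-222-3p. For miR-145a-5p it was so in 1 of 23, where the arrays were left unscaled. Over 23 other ways of processing, none of which put a member past the threshold (22 for miR-222-3p), miR-143-3p ranged over -0.15 to 0.18, miR-145a-5p over -0.27 to 0.08, miR-221-3p over -0.12 to 0.17 and miR-222-3p over -0.20 to 0.12. The upper ends came from leaving the arrays unscaled, which moved the median of all tested miRNAs to 0.19. The lowest adjusted p of a member was 0.215, for miR-145a-5p without control 1 and tacrolimus 4 (difference -0.27, unadjusted p = 0.0279, limma), where the median of all tested miRNAs was -0.082.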

How the data were processed

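Total kidney RNA (0.1 µg, RNA integrity number 9 for each sample, per the labels) was hybridised to one-colour (Cy3) Agilent mouse miRNA arrays. The authors deposited spot intensity on a linear scale. Per the file headers, the scanner software was Feature Extraction 10.7.3.1. The processed intensity equals the mean spot signal minus the software's spatial detrend surface, with no scaling between arrays. The values that the authors deposited per miRNA match TotalGeneSignal of these files in 100% of entries (tolerance 1e-06), with 0.1 where nothing was detected. The submitters' processing notes name limma.

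With R 4.3.3 and limma 3.58.1, control features, features with no mouse miRNA name and spots marked as outliers (7.36% to 11.2% per array) were left out, and the spots of each of 2645 probes were averaged. Detection of a probe required a share of 0.5 of its spots well above background. Using the 252 probes that all 8 arrays detected, signals were divided by each array's 75th percentile, floored at -5.96 (the median of the arrays' lowest detected signal) and put on the log2 scale. The brightest probe stood for its miRNA. The 194 miRNAs detected on at least 4 arrays were compared in a single limma fit (lmFit and eBayes, two-sided, 9.17 degrees of freedom, Benjamini-Hochberg over 194, threshold 0.05). The other 829 were not tested. Mature sequences came from RefSeq (GRCm38.p6). Of these steps only the limma fit was tested on simulated data, which were drawn as already scaled values. The differences put in were far larger than those of the members.

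The members and lists were chosen with earlier results of these data known. Named miRNAs are the members, the other arms of their loci, the 2 list miRNAs of smallest p in each list where none passed the threshold, and the 3 of highest Pearson r with each tested member.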

Additional observations from a re-analysis of the deposited data

Results flagged for a closer look

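The tested named miRNAs and the contrast gave 40 sets of 4 values, of which 2 held an array far from the other 3, where chance gives about 1 in 20, or 2. Both concern neighbours of a member. miR-30e-5p was at 1.08 on tacrolimus 2, against 1.24 to 1.26 on the other tacrolimus arrays. miR-30c-2-3p was at -4.24 on tacrolimus 4, against -4.06 to -4.02 on the other tacrolimus arrays. No member and no value of the contrast was so placed.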

How the results depend on the processing

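No alternative put a member past the threshold. Of 24 alternatives for the contrast 9 use the same within-array values and left it as it was, and the deposited values repeat the total gene signal. The other 14, of which 8 leave out 1 array, gave -0.060 to 0.044, within its SD. Signs did change. With median scaling miR-143-3p stood at -0.043 and miR-221-3p at -0.061, with quantile normalization at -0.023 and -0.063, and with the total gene signal, as with the deposited values, at -0.033 and -0.058. miR-221-3p stood at -0.011 with normexp background and at -0.025 with no outlier flag. With the mean of detected probes miR-221-3p stood at -0.0051 and miR-222-3p at 0.026. Without scaling miR-145a-5p stood at 0.080, miR-222-3p at 0.12 and miR-365-3p at 0.057, below the overall median of 0.19. Without control 1 and tacrolimus 4, chosen after seeing the data, miR-143-3p stood at -0.15 and miR-221-3p at -0.11. Leaving out 1 array, with the scaling set anew, gave -0.13 to 0.064 for miR-143-3p and -0.22 to -0.018 for miR-145a-5p. For miR-221-3p it gave -0.12 to 0.054 and for miR-222-3p -0.11 to 0.056. The median of all tested miRNAs then moved too, from -0.064 (without tacrolimus 4) to 0.058 (without control 1). The cause of the sign changes was not tested. With detection required on all 8 arrays miR-222-3p was not tested.

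Over all 194 miRNAs, 6 passed the threshold (6 higher, 0 lower). The count in limma was 8 with median scaling (6 higher, 2 lower), 7 with quantile normalization (6 higher, 1 lower), 5 with detection on all 8 arrays, 0 to 7 with 1 array left out, 1 with normexp (0 higher, 1 lower), and 0 in the unfiltered test (1023 miRNAs), with unscaled arrays or a percentile over every probe, with probes averaged, with the floor multiplied by 2, with the software's gene signal or the deposited values, with trend and robust estimation, with no outlier flag, the replicate block, and without control 1 and tacrolimus 4 (2 to 37 at an unadjusted p under 0.05). Between settings, the correlation of the nearest neighbour ranged over -0.22 to 0.89 for miR-143-3p, 0.70 to 0.99 for miR-145a-5p, 0.59 to 0.97 for miR-221-3p and 0.45 to 0.97 for miR-222-3p. With the replicate block, which equals slide column, members' differences were the same (lowest adjusted p 0.659, limma). Same-numbered arrays correlated at 0.095 to 0.14 after group means were removed, and 1 of 4 tacrolimus arrays correlated best with its own number, so the numbers were not taken as pairs.

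Signal over background limits what can be said of miR-222-3p, which was not called detected on tacrolimus 4, and of miR-143-5p and miR-145a-3p, which were not well above background. For the 4 tested arms the intervals leave room for changes of up to 17.4% downwards (miR-145a-5p) and 14.9% upwards (miR-222-3p). Slide row coincides with treatment.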
